A study of Homo sapiens with 6 samples.

Results

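The genes described here encode the Arp2/3 complex and the proteins that switch it on: the subunits ACTR2, ACTR3, ARPC1A, ARPC1B, ARPC2, ARPC3 and ARPC5, and the activators WASL, WASF2 and CTTN. They were taken by symbol from a deposited table of 46427 genes, in which all 10 were found, and all 10 were among the 16966 genes with enough reads to be tested. With TAZ-siRNA, ARPC1A and ARPC3 mRNA fell to 87.5% and 88.1% of control-siRNA, and the other 8 members did not pass the test. The call of ARPC3 was lost with a correction for GC content and transcript length (log2 fold change -0.18 before and -0.03 after it) and in 5 of 6 fits with 1 library left out, and that of ARPC1A in 3 of 6. ACTR2 stood at 89.8% and ARPC5 at 108.8% of control-siRNA, each without overlap between the groups, and the 3 activators lay between 97.7% and 104.0%. Among the members 2 of 10 were called, beside 22.1% of all genes tested in either direction. The groups did not overlap for 4 of 10 members, beside 39.6% of all genes tested.

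The Arp2/3 complex binds the side of an existing actin filament and starts a new filament there as a branch. Its actin-related subunits ACTR2 and ACTR3 form the first pair of the new filament, and the ARPC subunits hold them together and dock them on the mother filament. The complex is nearly inactive by itself, and is switched on by proteins of the WASP and WAVE families downstream of CDC42 and RAC, while cortactin binds the branch and keeps it from coming apart. Branched networks of this kind push the plasma membrane forward in lamellipodia and invadopodia of migrating tumour cells.

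The samples were MDA-MB-231 cells, a human breast cancer cell line with a mesenchymal form that does not express the oestrogen receptor. Cells were transfected with control-siRNA or with a siRNA against TAZ, the transcriptional coactivator encoded by WWTR1, and both groups were wild type apart from the siRNA. There were 3 libraries of separate cell preparations in each group, numbered here 1 to 3 as in the deposited columns. The question was which mRNAs differ when TAZ is depleted, in a study of migration and actin dynamics. The dose of siRNA and the time from transfection to harvest of the sequenced cells are not given in the sources used here. All cells were of 1 line, and the 3 preparations measure the spread between cultures of that line only. Cells were lifted with trypsin and EDTA before freezing, in both groups alike.

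The libraries held 48307548 to 71749634 estimated read counts. WWTR1 stood at 192, 190 and 190 CPM (read counts scaled to the library total with TMM factors) in control-siRNA replicates 1, 2 and 3, and at 17.3, 17.0 and 15.1 CPM in TAZ-siRNA replicates 1, 2 and 3. Its log2 fold change was -3.53 with a standard error (SE) of 0.061, which left 8.64% of the control level, so every library matched its label. All 5 markers of the line (VIM, CD44, KRT8, KRT18, KRT7) were above 1 TPM (abundance scaled to transcript length and library total) in both groups, and KRT7 among them stood at 477 to 495 TPM with control-siRNA and 342 to 369 TPM with TAZ-siRNA. Of the leukocyte markers, PTPRC and CD3E were at 0 in every library, and CD14 lay at 0.571 to 0.902 TPM with control-siRNA and 1.08 to 1.29 TPM with TAZ-siRNA. The summed luminal epithelial markers lay at 7.92 to 9.38 TPM with control-siRNA and 6.30 to 6.67 TPM with TAZ-siRNA. Among them GATA3 stood at 6.15 to 7.62 TPM with control-siRNA and 4.61 to 5.47 TPM with TAZ-siRNA, without overlap. EPCAM was above 1 TPM in every library, CDH1 was under 1 TPM in every library, and ESR1 and PGR were at or near 0. The summed endothelial markers lay at 2.14 to 2.95 TPM with control-siRNA and 2.22 to 3.67 TPM with TAZ-siRNA. The part of these differences in the results was not tested. In bulk RNA of this kind, fewer cells of a type and less RNA per cell cannot be told apart.

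The 10 genes were expressed at very different levels per transcript length. In control-siRNA cells, ARPC3 stood at 524 ± 7.80 TPM (SD, n = 3), ARPC2 at 514 ± 6.02 TPM, ACTR2 at 291 ± 12.9 TPM, ARPC1B at 166 ± 5.87 TPM and ARPC1A at 164 ± 2.76 TPM. CTTN followed at 139 ± 3.79 TPM, ACTR3 at 91.9 ± 1.88 TPM, WASF2 at 77.5 ± 4.55 TPM, ARPC5 at 51.2 ± 0.817 TPM and WASL at 40.0 ± 3.08 TPM. The highest member was 13.1-fold above the lowest. Of the 9 pairs of neighbours in this order, 2 overlapped between libraries, ARPC3 with ARPC2 and ARPC1B with ARPC1A, and 222 genes of the table had a higher mean TPM than ARPC3. In TAZ-siRNA cells the mean levels were 479 TPM for ARPC3 and 518 TPM for ARPC2, and ARPC1A stood at 149 TPM beside 165 TPM for ARPC1B. TPM gave ACTR3 means of 91.9 and 98.9 without overlap between the groups, whereas on the CPM scale used for the tests below its groups overlapped. ACTR2 went the other way, with TPM of 294, 302 and 277 in control-siRNA replicates 1 to 3 and 288, 282 and 245 in TAZ-siRNA replicates 1 to 3, which overlap, and no overlap in CPM.

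**Figure D1:**
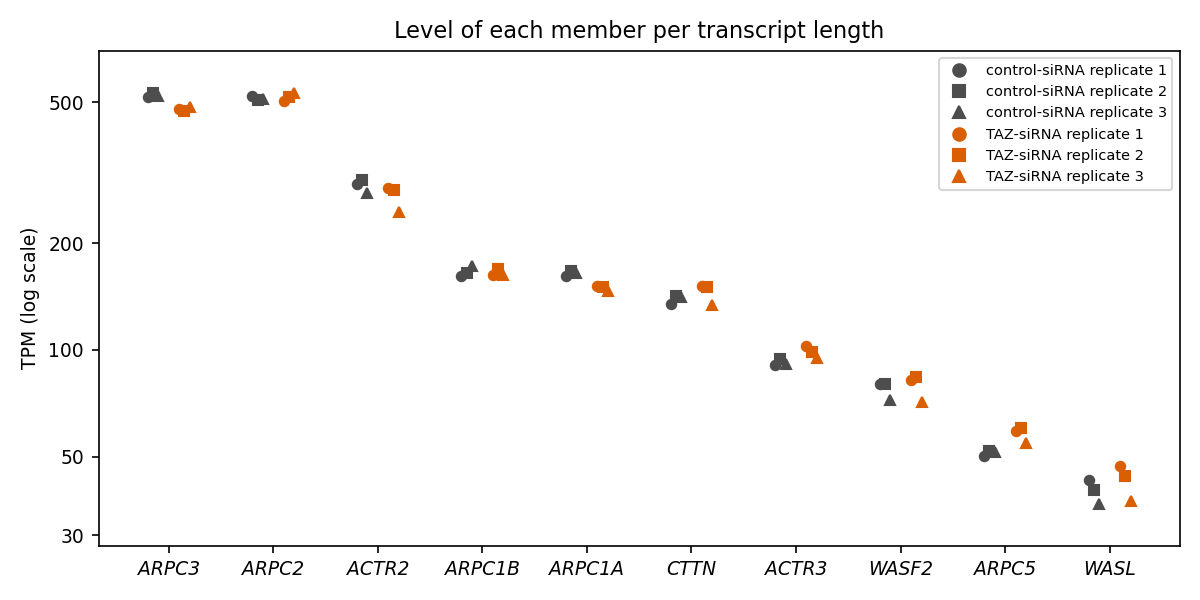
Level of each member in TPM (vertical axis, log scale) in the 3 control-siRNA libraries (grey) and the 3 TAZ-siRNA libraries (orange), ordered by the control mean, with 1 symbol shape per replicate number. ARPC3 and ARPC2 lie at the top with control means of 524 and 514 TPM and WASL at the bottom with 40.0 TPM, and the order of the means is the same in both groups except that ARPC2 stands above ARPC3 with TAZ-siRNA.

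Promoter sequences from RefSeq (GRCh38.p14) were found for 7 of the 10 members, ACTR2, ACTR3, ARPC1A, ARPC2, ARPC3, ARPC5 and WASL, with 10 start sites between them. The 250 bases before each start were searched on both strands for the core bound by TEAD factors, the DNA-binding partners of TAZ (GGAATG), and for the CArG box bound by serum response factor, which controls many actin genes. Neither was present in any of the 10 windows, while 11.9% and 1.16% of all 35116 promoters of the same length hold them. The ETS core CGGAAG, looked for after the sequences had been seen, was present in 7 of the 10 windows and in 6 of the 7 genes, against 16.5% of all promoters. The windows of ACTR3 that hold it, 34 and 189 bases before their starts, overlap and share the same match. The 10 windows had 57.6% to 76.4% GC, against a median of 58.0% over all promoters. A match of letters is a description and not a bound site. The stretches of 30 bases shown first come from the genes with lower values in all TAZ-siRNA libraries, with the ETS core in capitals and read 5′ to 3′ along the gene. ARPC1A (chr7:99325864-99325893, plus strand) holds it 24 bases before the start, ARPC3 (chr12:110450338-110450367, minus strand) 25 and 14 bases before, with another match 51 bases before, and ACTR2 (chr2:65227773-65227802, plus strand) 48 bases before, with another 185 bases before. Distances run to the RefSeq start from the first base of the match. The deposited models of these 3 genes begin further upstream, at chr7:99325873 (ARPC1A), chr12:110450411 (ARPC3) and chr2:65227695 (ACTR2). All matches in the 3 stretches shown, and the ARPC3 match 51 bases before, therefore lie inside the deposited models and not upstream of them. The ACTR2 match 185 bases before its RefSeq start lies upstream of both starts.
ARPC1A: gccgtgtccaCTTCCGggatctgtcagccg
ARPC3: cgcccCTTCCGtttcgCTTCCGcctacctc
ACTR2: ccggcggcggCTTCCGgtcgggggaaaaaa
The whole 250-base windows of ACTR3 (chr2:113889684-113889933, plus strand), the partner of ACTR2 whose groups overlapped, and of ARPC5 (chr1:183635784-183636033, minus strand), whose TAZ-siRNA libraries were all higher, follow for comparison. ACTR3 holds the ETS core 34 bases before its start, and ARPC5 is the gene without it. ARPC2 (63 and 45 bases before a start) and WASL (200 bases before), whose groups overlapped, hold it as well.
ACTR3: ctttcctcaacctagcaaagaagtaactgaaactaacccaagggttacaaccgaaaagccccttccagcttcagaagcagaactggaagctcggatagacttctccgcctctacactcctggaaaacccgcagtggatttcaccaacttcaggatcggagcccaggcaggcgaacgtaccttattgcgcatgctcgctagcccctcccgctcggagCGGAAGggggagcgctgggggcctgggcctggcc
ARPC5: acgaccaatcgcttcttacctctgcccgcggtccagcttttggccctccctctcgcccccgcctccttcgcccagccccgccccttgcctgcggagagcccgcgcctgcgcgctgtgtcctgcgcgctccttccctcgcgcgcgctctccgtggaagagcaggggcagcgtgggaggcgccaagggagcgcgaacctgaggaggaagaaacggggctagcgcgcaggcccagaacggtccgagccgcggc

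The actin-related subunits did not pass the test. ACTR2, the Arp2 subunit (chr2:65227695-65271253, plus strand, GRCh38, as are all gene positions here), stood at 505.3, 519.4 and 495.5 CPM in control-siRNA replicates 1 to 3 and at 467.9, 463.3 and 433.8 CPM in TAZ-siRNA replicates 1 to 3. On this scale no TAZ-siRNA library reached the control range, and TAZ-siRNA replicate 3 was the lowest. The log2 fold change was -0.16 (SE 0.056, 95% interval -0.28 to -0.03), with an adjusted p of 0.073 in edgeR's quasi-likelihood test, so that ACTR2 missed the threshold of 0.05. DESeq2 gave an adjusted p of 0.022 for the same gene.

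ACTR3, the Arp3 subunit (chr2:113889934-113962596, plus strand), read 270.0, 279.1 and 283.3 CPM in control-siRNA replicates 1 to 3 and 288.5, 281.7 and 291.9 CPM in TAZ-siRNA replicates 1 to 3. The groups overlapped, since TAZ-siRNA replicate 2 lay below control-siRNA replicate 3. Its log2 fold change was 0.05 (SE 0.050, 95% interval -0.06 to 0.16), with an edgeR adjusted p of 0.510. An antisense gene, ACTR3-AS1, overlaps it on the opposite strand with 8 to 14 counts per library.

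ARPC1A and ARPC1B are alternative versions of the same WD-repeat subunit, which contacts the activating segment of WASP family proteins. Their genes lie in the same orientation on chromosome 7, ARPC1A at chr7:99325873-99366262 and ARPC1B at chr7:99374254-99394816, with 7991 bases between them. A protein-coding gene without a name, ENSG00000284292, overlaps both on the same strand and was not among the genes tested. Its part in the reads of ARPC1A and ARPC1B was not tested. ARPC1A had 115.9, 119.9 and 123.5 CPM in control-siRNA replicates 1 to 3 and 103.0, 103.2 and 108.2 CPM in TAZ-siRNA replicates 1 to 3. All TAZ-siRNA libraries were below all control libraries. Means were 120 ± 3.78 and 105 ± 2.97 CPM (SD, 3 libraries each), which gave a log2 fold change of -0.19 (SE 0.047, 95% interval -0.30 to -0.09; edgeR adjusted p = 0.0157).

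The call of ARPC1A held in 9 of 9 other settings at the same threshold and in 3 of 6 fits with 1 library left out. It was lost when control-siRNA replicate 2 (edgeR adjusted p = 0.0762), control-siRNA replicate 3 (0.0776) or TAZ-siRNA replicate 1 (0.0742) was left out, and the log2 fold change stayed between -0.21 and -0.17.

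ARPC1B, the version whose loss in humans affects blood and immune cells, had 113.6, 119.2 and 127.2 CPM in control-siRNA replicates 1 to 3 and 109.3, 114.3 and 116.2 CPM in TAZ-siRNA replicates 1 to 3. The groups overlapped, and replicate 1 was the lowest library in each. Its log2 fold change was -0.08 (SE 0.054, 95% interval -0.20 to 0.04), with an edgeR adjusted p of 0.296. The gene PDAP1, on the opposite strand, overlaps ARPC1B and had 6045 to 9120 counts per library. Whether the counting used strand is not stated, so the reads of the pair cannot be told apart with certainty.

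ARPC2 forms, with ARPC4, the structural core that binds the mother filament, and ARPC3 sits against ACTR3. ARPC2 (chr2:218217138-218254348, plus strand) had 348.5, 346.0 and 360.9 CPM in control-siRNA replicates 1 to 3 and 323.9, 331.4 and 366.4 CPM in TAZ-siRNA replicates 1 to 3. TAZ-siRNA replicate 3 was the highest of all 6 libraries and the other TAZ-siRNA libraries were the lowest. The log2 fold change was -0.05 (SE 0.061, 95% interval -0.18 to 0.09), with an edgeR adjusted p of 0.625.

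ARPC3 (chr12:110434823-110450411, minus strand) had 223.1, 229.3 and 232.9 CPM in control-siRNA replicates 1 to 3 and 195.1, 194.3 and 214.4 CPM in TAZ-siRNA replicates 1 to 3. The groups did not overlap, and TAZ-siRNA replicate 3 lay nearest to the controls. Means were 228 ± 4.99 and 201 ± 11.3 CPM (SD, 3 libraries each), which gave a log2 fold change of -0.18 (SE 0.054, 95% interval -0.30 to -0.06; edgeR adjusted p = 0.0356).

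ARPC3 kept its call in 1 of 6 fits with 1 library left out, that without TAZ-siRNA replicate 3 (edgeR adjusted p = 0.0011), and the other 5 gave edgeR adjusted p values of 0.0824 (without control-siRNA replicate 1), 0.133 (control-siRNA replicate 2), 0.128 (control-siRNA replicate 3), 0.145 (TAZ-siRNA replicate 1) and 0.108 (TAZ-siRNA replicate 2). A correction for GC content and transcript length took its log2 fold change to -0.03 (edgeR adjusted p = 0.649). The correction takes out any trend with GC content or length that differs between the groups. It cannot tell a technical trend from one that came with the siRNA. The longest deposited ARPC3 transcript has 950 bases, against a median of 3558 bases over the tested genes. The GC content used for ARPC3 was 38.2%, against a median of 47.9%. It came from the longest transcript of that symbol in the GENCODE annotation, which may be another transcript. The same correction left ARPC1A at a log2 fold change of -0.13 (edgeR adjusted p = 0.0166).

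ARPC5, the small subunit that tethers ARPC1A or ARPC1B to the rest of the complex (chr1:183620846-183635783, minus strand), had 165.9, 171.2 and 177.2 CPM in control-siRNA replicates 1 to 3 and 184.8, 189.4 and 185.2 CPM in TAZ-siRNA replicates 1 to 3. All TAZ-siRNA libraries were above all control libraries, which was the opposite side from ACTR2, ARPC1A and ARPC3. Its log2 fold change was 0.12 (SE 0.047, 95% interval 0.02 to 0.22), with an edgeR adjusted p of 0.088. Without TAZ-siRNA replicate 3 the edgeR adjusted p was 0.033, and with the GC and length correction the log2 fold change was 0.05 (edgeR adjusted p = 0.527).

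The activators did not pass the test. WASL, or N-WASP, which couples CDC42 to the complex (chr7:123681943-123749003, minus strand), had 84.9, 80.0 and 75.8 CPM in control-siRNA replicates 1 to 3 and 88.0, 83.1 and 76.1 CPM in TAZ-siRNA replicates 1 to 3. The groups overlapped over nearly their whole range. The log2 fold change was 0.04 (SE 0.064, 95% interval -0.10 to 0.18; edgeR adjusted p = 0.712).

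WASF2, or WAVE2, the activator downstream of RAC1 in lamellipodia (chr1:27404230-27490167, minus strand), had 205.8, 206.1 and 194.0 CPM in control-siRNA replicates 1 to 3 and 198.9, 205.6 and 187.5 CPM in TAZ-siRNA replicates 1 to 3. In both groups replicate 3 was the lowest. Its log2 fold change was -0.03 (SE 0.053, 95% interval -0.15 to 0.08; edgeR adjusted p = 0.697). With the GC and length correction it was -0.13 (edgeR adjusted p = 0.023).

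CTTN, or cortactin, which binds the complex and filaments at branches (chr11:70398506-70436584, plus strand), had 193.3, 199.8 and 194.1 CPM in control-siRNA replicates 1 to 3 and 205.5, 206.7 and 198.6 CPM in TAZ-siRNA replicates 1 to 3. TAZ-siRNA replicate 3 lay within the control range and the other TAZ-siRNA libraries lay above it. The log2 fold change was 0.06 (SE 0.046, 95% interval -0.05 to 0.16; edgeR adjusted p = 0.418). The 95% intervals of the activators thus reached no further than -0.15 and 0.18 on the log2 scale. By edgeR, DESeq2 and limma none of these 3 genes was called, and none had an unadjusted p under 0.05.

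**Figure D2:**
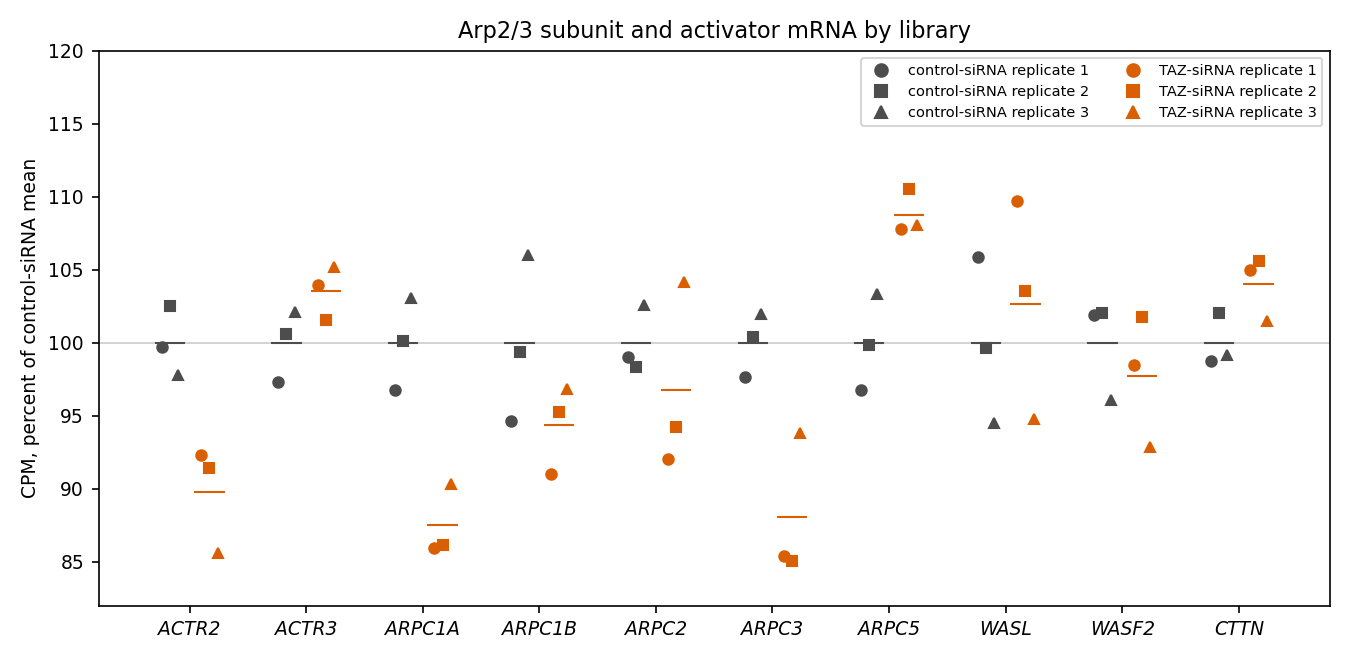
CPM of each member in each library as a percent of its control-siRNA mean (vertical axis), with control-siRNA in grey, TAZ-siRNA in orange, 1 symbol shape per replicate number and short bars at the group means. ARPC1A, ARPC3 and ACTR2 have all TAZ-siRNA points below the control points, ARPC5 has all of them above, and the other 6 genes overlap.

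Counted over the members, edgeR called 2 of 10 genes lower (20.0%), beside 10.2% of all genes tested. It called 0 of 10 higher, beside 11.9% of all genes tested, with 1 (ARPC5) at an unadjusted p under 0.05. In either direction 4 of 10 members had such a p, beside 6069 of the 16966 genes tested. DESeq2 called 3 lower, with ACTR2 added, and 0 higher, beside 11.0% and 12.7% of all genes tested. limma on log2(FPKM + 1) called 2 lower and 0 higher, beside 8.23% and 8.35%. The groups did not overlap for 4 of 10 members (40.0%), beside 39.6% of all genes tested, so that this share was at the level of the whole transcriptome. The median log2 fold change was -0.04 over the 10 members, with 4 positive and 6 negative, against -0.0054 over all genes tested. Over the 7 subunits it was -0.08. ACTR2, ARPC1A, ARPC2, ARPC3 and ARPC5 are named in lists that the study drew from these same libraries, so their direction here is not independent evidence.

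**Figure D3:**
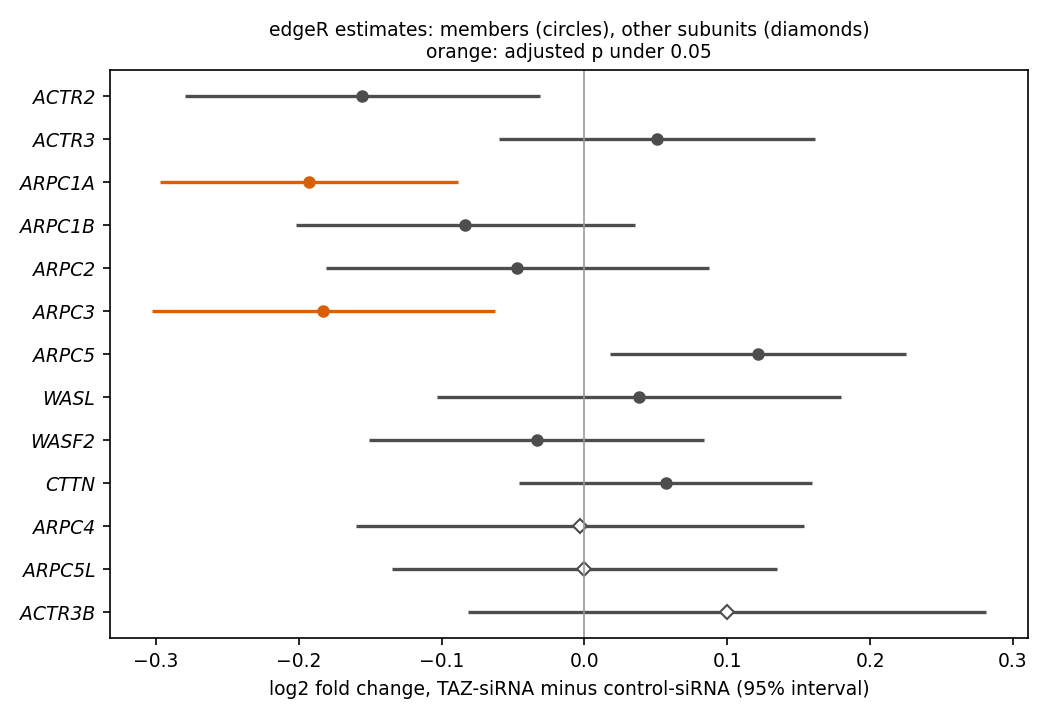
Log2 fold change, TAZ-siRNA minus control-siRNA, of the 10 members (filled circles) and 3 further subunits (open diamonds), with 95% intervals from edgeR. Orange marks ARPC1A and ARPC3, the genes with an adjusted p under 0.05, at -0.19 and -0.18.

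The mix of related genes was compared as a ratio of FPKM, the authors' length-scaled abundance, within each library, which does not depend on the scaling between libraries. The ratio of ARPC1A to ARPC1B was 1.0, 1.01 and 0.954 in control-siRNA replicates 1 to 3 and 0.930, 0.889 and 0.902 in TAZ-siRNA replicates 1 to 3. The ratio of ACTR3 to ACTR2 was 0.308, 0.311 and 0.329 with control-siRNA and 0.357, 0.350 and 0.388 with TAZ-siRNA. In both pairs the groups did not overlap, with a lower share of ARPC1A and a higher share of ACTR3 in TAZ-siRNA libraries. The exact permutation p was 0.1 for each, 2-sided, the smallest that 3 against 3 libraries allow, and 0.2 after adjustment over the 4 ratios.

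The ratio of ARPC5 to its alternative ARPC5L was 0.716, 0.725 and 0.713 with control-siRNA and 0.823, 0.837 and 0.710 with TAZ-siRNA. TAZ-siRNA replicate 3 stood below all controls and the other TAZ-siRNA libraries above them (exact permutation p = 0.4, adjusted 0.4). The ratio of WASL to WASF2 was 0.534, 0.504 and 0.508 with control-siRNA and 0.572, 0.525 and 0.525 with TAZ-siRNA, with overlap (exact permutation p = 0.3, adjusted 0.4). The exact test cannot reach 0.05 for any of these ratios with 3 against 3 libraries.

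**Figure D4:**
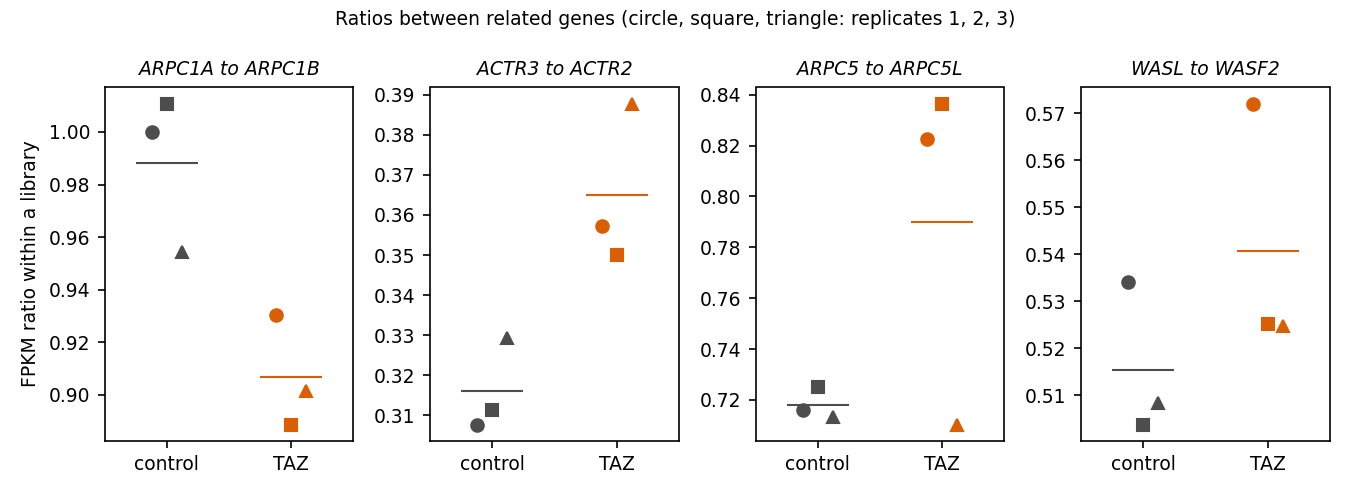
Ratio of FPKM between related genes within each library (vertical axes, 1 panel per pair, each with its own range that does not start at 0), with control-siRNA in grey, TAZ-siRNA in orange and bars at the group means. ARPC1A to ARPC1B has means of 0.988 and 0.907 and ACTR3 to ACTR2 of 0.316 and 0.365, both without overlap between the groups, and the other pairs overlap.

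At the level of transcripts, the 10 genes had 31 annotated transcripts, of which 16 carried at least 5% of their gene's TPM on average. In ACTR2, ACTR3, ARPC1A, ARPC5, WASF2 and WASL, 6 genes in all, a single transcript did so. CTTN had NM_005231 at 75.8% of its TPM with control-siRNA and 86.4% with TAZ-siRNA, and ARPC1B had NM_005720 at 61.1% and 70.4% with 3 further transcripts over 5%. In ARPC2 the leading transcript NM_152862 stood at 81.6% and 83.7%, with NM_005731 at 7.83% and 6.48%. In ARPC3 the transcript NM_001278556 stood at 88.4% ± 3.53 (SD, n = 3) with control-siRNA and 93.3% ± 2.47 with TAZ-siRNA, and NM_001287222 at 11.6% and 6.69%. The groups overlapped for all 16 of these shares. In TPM, NM_001278556 of ARPC3 stood at 453, 492 and 445 in control-siRNA replicates 1 to 3 and 438, 455 and 449 in TAZ-siRNA replicates. NM_001287222 stood at 66.1, 40.6 and 74.9 and at 41.3, 18.5 and 36.6 in the same order. Both overlapped between the groups. Their log2 fold changes were -0.09 (edgeR adjusted p = 0.916) and -0.95 (edgeR adjusted p = 0.782).

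A test of single transcripts by edgeR called 0 of the 30 member transcripts tested, beside 0.017% of the 64638 transcripts tested. Of the 30, 3 had an unadjusted p under 0.05, and the share of all transcripts at that level was not counted. The spread between libraries was 84.4% per transcript (the common biological coefficient of variation) against 8.04% per gene. DESeq2 called 2 of the 30, beside 3.56% of all transcripts. These were NM_006409, the main ARPC1A transcript, lower at a DESeq2 adjusted p of 0.032, and NM_005717, the main ARPC5 transcript, higher at a DESeq2 adjusted p of 0.0064.

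The other genes of the pathway were taken from lists by role, 52 genes of which 51, all but ABI3, were tested. By edgeR 8 were called lower (15.7%) and 3 higher (5.88%), beside 10.2% and 11.9% of all genes tested, and their median log2 fold change was -0.04. The groups did not overlap for 23 of them (45.1%, beside 39.6% of all genes tested). RAC1, RAC2, CDC42, NCK1, FNBP1L, NCKAP1L, ACTB, ACTG1 and PFN1 also stand in lists that the study drew from these libraries, so their direction here is not independent evidence.

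None of the 3 further subunits was called by edgeR, DESeq2 or limma, and none had an unadjusted p under 0.05. ARPC4, which forms the core with ARPC2, stood at 170, 174 and 194 CPM in control-siRNA replicates 1 to 3 and 174, 167 and 196 CPM in TAZ-siRNA replicates 1 to 3 (log2 fold change -0.0032; edgeR adjusted p = 0.981). ARPC4 shares exons with the read-through gene ARPC4-TTLL3, so its count is uncertain to that extent. ARPC5L, the alternative to ARPC5, had means of 86.4 and 86.4 CPM (edgeR adjusted p = 1.00). ACTR3B, the alternative to ACTR3, was low at 8.78 and 9.43 CPM, with a log2 fold change of 0.10 (edgeR adjusted p = 0.420).

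Of 7 further activators, 2 were called lower. HCLS1, the haematopoietic relative of cortactin, fell from 1.94 ± 0.155 to 1.26 ± 0.0561 CPM (SD, 3 libraries each), with a log2 fold change of -0.63 (edgeR adjusted p = 0.0176). WASHC1, the activator on endosomes, fell from 23.5 to 19.3 CPM (log2 fold change -0.28; edgeR adjusted p = 0.0158), and limma on log2(FPKM + 1) lost the call (adjusted p = 0.0988). WASHC1 has near-identical copies in the genome, so its reads are not certain to come from it. HCLS1 missed the threshold in edgeR fits without control-siRNA replicate 1 (adjusted p = 0.0708), control-siRNA replicate 2 (0.0671) and TAZ-siRNA replicate 1 (0.0687), and WASHC1 without control-siRNA replicate 1 (0.0551) and control-siRNA replicate 2 (0.0881).

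In the WAVE regulatory complex, which holds WASF2 inactive until RAC1 binds, 1 of 7 genes was called. NCKAP1L, the blood-cell form of NCKAP1, was at 0.960, 1.14 and 1.63 CPM in control-siRNA replicates 1 to 3 and at 0.507, 0.547 and 0.322 CPM in TAZ-siRNA replicates 1 to 3. It fell by 1.42 on the log2 scale (edgeR adjusted p = 0.0059), at a level where little RNA was counted in either group, and limma on log2(FPKM + 1) gave an adjusted p of 0.0685. HCLS1 and NCKAP1L are best known from blood cells, and of the leukocyte markers PTPRC and CD3E were at 0 in all 6 libraries, while CD14 was detected at 0.571 to 0.902 TPM with control-siRNA and 1.08 to 1.29 TPM with TAZ-siRNA. NCKAP1 itself had means of 283 and 296 CPM (edgeR adjusted p = 0.390).

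Among 9 partners of N-WASP, 2 were called higher and 2 lower. WIPF2, a WIP family protein that binds N-WASP, rose from 85.7 ± 2.47 to 104 ± 6.30 CPM (SD, 3 libraries each), with a log2 fold change of 0.28 (edgeR adjusted p = 0.0057), and was called in all 6 fits with 1 library left out. The GC and length correction took WIPF2 to a log2 fold change of 0.16 (edgeR adjusted p = 0.0169). The other higher gene, FNBP1L, which brings CDC42 and N-WASP to membranes, had a log2 fold change of 0.16 (edgeR adjusted p = 0.0495) and kept its call in 1 of 6 such fits, that without TAZ-siRNA replicate 3, with an edgeR adjusted p of up to 0.188 in the others. WIPF3, a relative of WIPF2, fell from 3.76 to 2.63 CPM (log2 fold change -0.52; edgeR adjusted p = 0.0167), and the adaptor NCK1 fell from 42.2 to 37.1 CPM (log2 fold change -0.18; edgeR adjusted p = 0.047). With 1 library left out, WIPF3 kept its call in 2 of 6 fits (without control-siRNA replicate 3 or TAZ-siRNA replicate 3) and NCK1 in 1 of 6 (without TAZ-siRNA replicate 3), and the edgeR adjusted p reached 0.0774 for WIPF3 and 0.153 for NCK1. With limma on log2(FPKM + 1) the adjusted p was 0.0834 for FNBP1L and 0.0708 for NCK1.

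In the WASH complex and its capping protein, 1 of 8 genes was called. CAPZA1, a capping protein subunit that blocks the growing end of filaments and so keeps branches short, was at 423, 414 and 421 CPM in control-siRNA replicates 1 to 3 and at 320, 300.2 and 321 CPM in TAZ-siRNA replicates 1 to 3. The groups lay far apart, with means of 419 ± 4.55 and 314 ± 11.8 CPM (SD, n = 3). The log2 fold change of -0.42 (95% interval -0.54 to -0.30; edgeR adjusted p = 5.9e-04) left CAPZA1 at 74.8% of control-siRNA, and the call held in all 6 fits with 1 library left out.

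The upstream GTPases gave no call among 5 genes by edgeR, DESeq2 or limma, with 1 higher and 2 lower at an unadjusted p under 0.05 in edgeR. Over all 16966 genes tested, 6069 had such a p in either direction. RAC1, which acts through WASF2, had means of 286 ± 7.89 and 261 ± 8.29 CPM (SD, n = 3), and CDC42, which acts through WASL, of 221 ± 6.11 and 242 ± 7.41 CPM. Both were without overlap, RAC1 with a log2 fold change of -0.13 (edgeR adjusted p = 0.094) and CDC42 with one of 0.13 (edgeR adjusted p = 0.085). RAC1 passed the threshold without TAZ-siRNA replicate 3 (edgeR adjusted p = 0.0201) and with the GC and length correction (0.0396), which took CDC42 to a log2 fold change of 0.03 (edgeR adjusted p = 0.749).

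Of 8 inhibitors and debranching factors, 1 was called higher and 2 lower. CORO1B, a coronin that removes Arp2/3 from branches, fell from 105 ± 2.51 to 86.5 ± 3.60 CPM (SD, 3 libraries each), with a log2 fold change of -0.29 (edgeR adjusted p = 0.0027), and was called in all 6 fits with 1 library left out, although limma on log2(FPKM + 1) gave an adjusted p of 0.0903. CORO7, a coronin of the Golgi, rose from 13.6 ± 0.617 to 17.3 ± 0.669 CPM (log2 fold change 0.35; edgeR adjusted p = 0.0059), also in all 6 fits. GMFG, a cofilin-like debranching factor, fell from 32.7 to 26.9 CPM (log2 fold change -0.28; edgeR adjusted p = 0.022), with a call in 2 of 6 such fits, those without control-siRNA replicate 1 or TAZ-siRNA replicate 3, and an edgeR adjusted p of up to 0.0972 in the others. The GC and length correction took GMFG to a log2 fold change of -0.16 (edgeR adjusted p = 0.045). The 4 genes for actin monomers and their carrier profilin gave no call by edgeR, with 1 lower at an unadjusted p under 0.05. Such a p was found for 6069 of all 16966 genes tested, in either direction. For these 4 genes DESeq2 called 1 higher and 1 lower, and limma 1 lower. ACTB, beta-actin, had a log2 fold change of 0.12 (edgeR adjusted p = 0.165, DESeq2 0.042), and ACTG1, gamma-actin, one of -0.19 (edgeR adjusted p = 0.056, DESeq2 0.0060). These mRNAs share much of their coding sequence, so the authors' counting could split their reads.

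**Figure D5:**
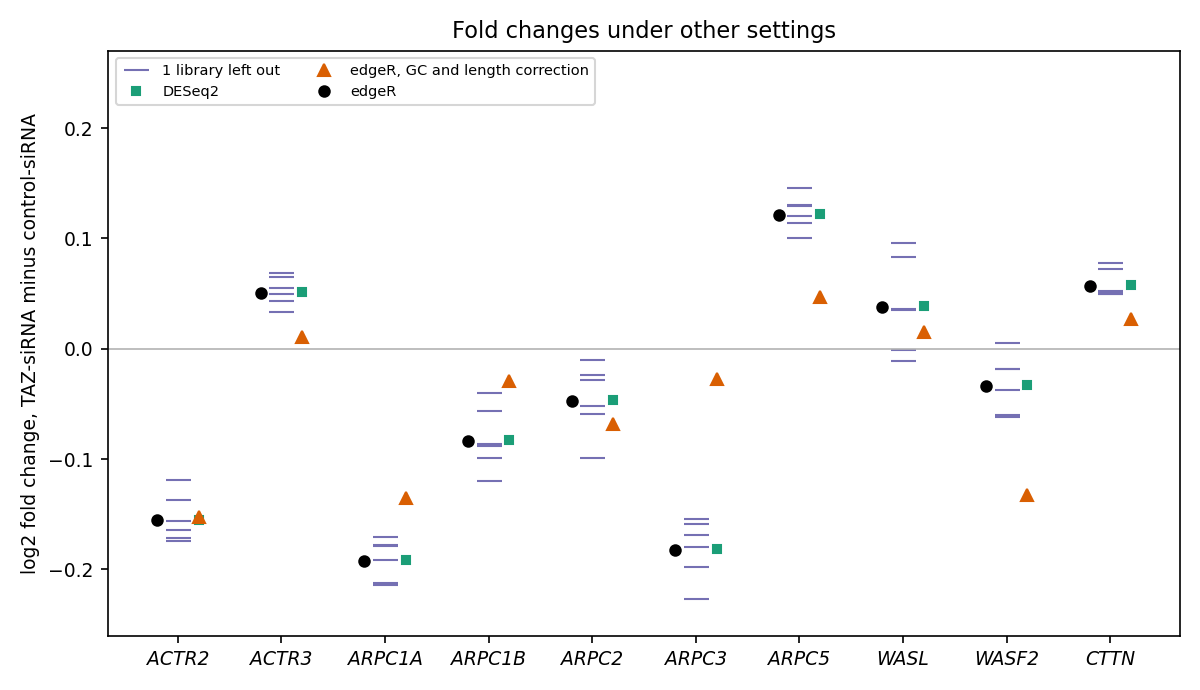
Log2 fold change of each member, TAZ-siRNA minus control-siRNA (vertical axis), from edgeR on all libraries (black), with 1 library left out (purple bars), from DESeq2 (green) and with a GC and length correction (orange). ARPC1A stays between -0.21 and -0.13 in all of these, while ARPC3 moves from -0.18 to -0.03 and WASF2 from -0.03 to -0.13 with the correction.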

How the data were processed

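RNA was measured in 6 libraries of MDA-MB-231 cells by poly(A)-selected, stranded sequencing of 100-base paired reads. The authors mapped reads to GRCh38 with HISAT2 and assembled them on RefSeq models with StringTie, and versions of these tools are not given in the sources used here. The submitters' processing notes also list Bowtie 0.12.2 and a mouse build, with no role given. The authors deposited estimated counts (whole numbers as deposited), FPKM and TPM per gene and per transcript, with the length of each transcript in bases. Strand use in counting is not stated. Every deposited column had a sample.

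The deposited counts were tested with edgeR 4.0.16 (quasi-likelihood, TMM, robust dispersions, filterByExpr with a minimum count of 10, R 4.3.3) on the 3 libraries per group, with Benjamini-Hochberg adjustment over all 16966 genes or 64638 transcripts and a threshold of 0.05. Library totals were 48307548 to 71749634. Fold changes are TAZ-siRNA minus control-siRNA on the log2 scale. Levels are compared between genes in TPM only, and ratios with exact permutation tests. Replicates of a group differed beyond counting noise (chi-square per degree of freedom 6.38 to 38.2). The fit was tested on simulated data. Alternatives were DESeq2 1.42.0, limma 3.58.1 on log2 FPKM with pseudocounts of 1 and 0.1, other filters and scaling, a replicate block, a spline correction (5 degrees of freedom) for GC content and transcript length, and each library left out. GC and length values existed for 15218 genes, among them the 10 members. Length was that of the longest deposited transcript, and GC content that of the longest GENCODE transcript of the same symbol.

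Named were the 10 members, WWTR1, ARPC4, ARPC5L, ACTR3B, RAC1, CDC42 and, in each list by role, the 3 genes with the largest called change and no overlap between groups, and transcripts with at least 5% of their gene's TPM. NCKAP1, FNBP1L, ACTB and ACTG1 were named after their values had been seen. Members and lists were chosen with earlier results of these data known, and the search for the ETS core after the sequences had been seen. Protein sequences were not used here. A marker gene of the leukocyte list is not reported here.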

Additional observations from a re-analysis of the deposited data

How the results depend on the processing

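Of the 10 members, ARPC1A kept its call in 9 of 9 settings that used all libraries and the threshold of 0.05, and ARPC3 in 7 of 9. ACTR2, not called by edgeR, passed in 4 of 9 (lowest adjusted p 0.0074), WASF2 in 2 of 9 and ARPC5 in 1 of 9. No member turned its direction in those 9 settings. With 1 library left out, WASL ranged from -0.011 to 0.096 and WASF2 from -0.062 to 0.0054. WASL turned to -0.0011 when control-siRNA replicate 3 and to -0.011 when TAZ-siRNA replicate 1 was left out, and WASF2 to 0.0054 when TAZ-siRNA replicate 3 was, all close to 0. At an adjusted p under 0.01, 0 members were called, and 3 other pathway genes were lower and 2 higher, with 4.38% of all genes lower and 5.76% higher.

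With 1 library left out, 0 to 2 members were lower and 0 to 1 higher, and 3 to 14 pathway genes were lower. Without TAZ-siRNA replicate 3 the counts were 2 lower and 1 higher members and 14 lower pathway genes, in a fit that called 16.1% of all genes lower and 17.6% higher. Without control-siRNA replicate 2, 0 members and 3 pathway genes were lower, in a fit that called 4.84% of all genes lower. The counts of members were 0 lower also without control-siRNA replicate 3 (5.32% of all genes) or TAZ-siRNA replicate 1 (5.22%).

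The replicate block gave 1 higher and 3 lower members and 5 higher and 15 lower pathway genes, against 0, 2, 3 and 8 without it, with 15.3% of all genes higher and 14.9% lower. Whether the replicate numbers pair the libraries is not known. Deviations of same-numbered libraries from their group means correlated at -0.017, 0.0086 and 0.070, and not every library correlated best with its own number. With 3 libraries per group the deviations within a group are tied to each other, so these correlations cannot decide it. The GC and length correction called 0 higher and 3 lower members (ARPC1A, ACTR2 and WASF2) and 5 higher and 15 lower pathway genes, with 13.5% of all genes higher and 15.9% lower, and the same correction with the replicate block gave 5 higher and 15 lower pathway genes, with 15.3% of all genes higher and 18.7% lower. The block also called RAC1 (adjusted p = 0.0398) and CDC42 (0.0272). limma on log2(FPKM + 1) and on log2(FPKM + 0.1) gave 5 lower pathway genes each. DESeq2 called 2 member transcripts against 0 by edgeR. Why these counts moved was not tested.

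With 3 libraries per group the 95% intervals of the members' log2 fold changes were as wide as -0.10 to 0.18 (WASL), so differences of a few percent were not detectable. Transcript estimates varied more between libraries than gene estimates, and calls among them differed between edgeR and DESeq2.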
